A study of Mus musculus with 24 samples.

Results

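Depp1 (8430408G22Rik on the array) was the gene with the largest rise between the Norm and the Hypox group in the M. gastrocnemius of mice, and it is described here on each array, together with the genes that varied with it between mice of the same group. It was chosen because of that rise, as 1 of 9104 genes whose brightest probe had a mean Cy5 signal over 2 times its background, so the difference between the groups is a description and no test of it is given. Depp1 encodes a small protein that is induced by fasting, progesterone and FOXO transcription factors, and that has been linked to autophagy and to the handling of reactive oxygen species. FOXO factors are active when insulin and Akt signalling is low, as in fasting muscle, where they raise genes for protein breakdown, autophagy and the switch from glucose to fatty acids. The fasted muscle of these mice is therefore a tissue in which FOXO targets are usually switched on before any change in oxygen.

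The 24 arrays came from 24 male C57BL/6JOlaHsd mice that arrived at 10 weeks of age, received a low-fat diet (10 energy percent fat) for 3 weeks and a high-fat diet (40 energy percent fat) for 6 weeks, and were then fasted. For 6 h, 12 mice breathed 20.9% oxygen (Norm) and 12 mice breathed 12% oxygen (Hypox). High-fat feeding and fasting were shared by both groups. Each array compared Cy5-labelled RNA of 1 mouse with a Cy3-labelled pool of all samples, so a log2 ratio gives the level in that mouse relative to the pool, and each of the 6 slides held 2 Norm and 2 Hypox arrays.

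The arrays differed in Cy5 brightness, which bears on every value below. The mean Cy5 signal of an array ran from 58.3 to 1014 scanner units, whereas the mean Cy3 signal ran from 849 to 1448. The share of spots well above background in Cy5 was 9.42% to 37.3% in Norm and 12.0% to 37.8% in Hypox. Slide 1 was the dimmest, with a mean Cy5 signal of 72.9, and slide 6 the brightest, with 845. All 19 skeletal muscle fibre markers of a list (among them Ckm, Acta1 and Myh4) were well above background on at least 1 array.

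A single spot measured Depp1. Its probe has 60 bases and lies at chr6:116602564-116602623 in the array's own annotation (mm9), starting at base 1015 of the transcript NM_145980. Depp1 had also been measured by quantitative PCR. A search of the probe found the site of the reverse PCR primer at probe bases 25 to 44, so the probe and the PCR product overlap. The stretch of the probe that carries this site (in capitals) and the primers (the reverse primer in capitals) are shown because they define what was measured.
Probe bases 20 to 49: agtgaGTGTAGGTGGAGTGACCACCtccca
Forward primer: tagctcccacaatgcgactt
Reverse primer: GGTGGTCACTCCACCTACAC

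The 250 bases before the start of Depp1, at chr6:116650434-116650683 on the plus strand of GRCm38.p6 (RefSeq), are shown because FOXO factors, the hypoxia-inducible factors (HIF) and the glucocorticoid receptor are the regulators whose targets are compared with Depp1 below. The RefSeq gene runs from 116650684 to 116652847 on chromosome 6. Capitals mark the single match to any motif searched.
Depp1 promoter: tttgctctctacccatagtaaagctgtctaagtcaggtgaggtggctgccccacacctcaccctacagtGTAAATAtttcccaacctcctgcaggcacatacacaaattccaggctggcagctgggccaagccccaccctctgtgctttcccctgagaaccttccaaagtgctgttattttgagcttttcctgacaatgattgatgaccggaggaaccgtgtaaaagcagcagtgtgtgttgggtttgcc

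On both strands of these bases and the 50 that follow them, the forkhead motif GTAAACA, the HIF core ACGTG and AGAACA, an element of glucocorticoid receptor sites, had 0 matches. These letters occur in 3.65%, 19.6% and 19.0% of 32851 promoters of the same length, respectively. A forkhead variant, GTAAATA, was added after the sequence had been read and matched at 181 bases before the start. That variant occurs in 3.04% of the promoters. A match is a description of letters in this window and says nothing about binding.

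The raw signals showed the difference between the groups before any normalization. In Norm, the lowest Cy5 signal of the Depp1 spot was 32.1 scanner units, the median 106 and the highest 490 (n = 12). In Hypox these were 51.6, 225 and 1125 (n = 12). The Cy3 signal of the same spot, from the pool, lay between 728 and 1181 on the Norm arrays, and the Hypox arrays had 842 to 1249. The Cy5 ranges overlapped across slides, but on 6 of 6 slides both Hypox arrays were brighter than both Norm arrays of the same slide.

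**Figure D1:**
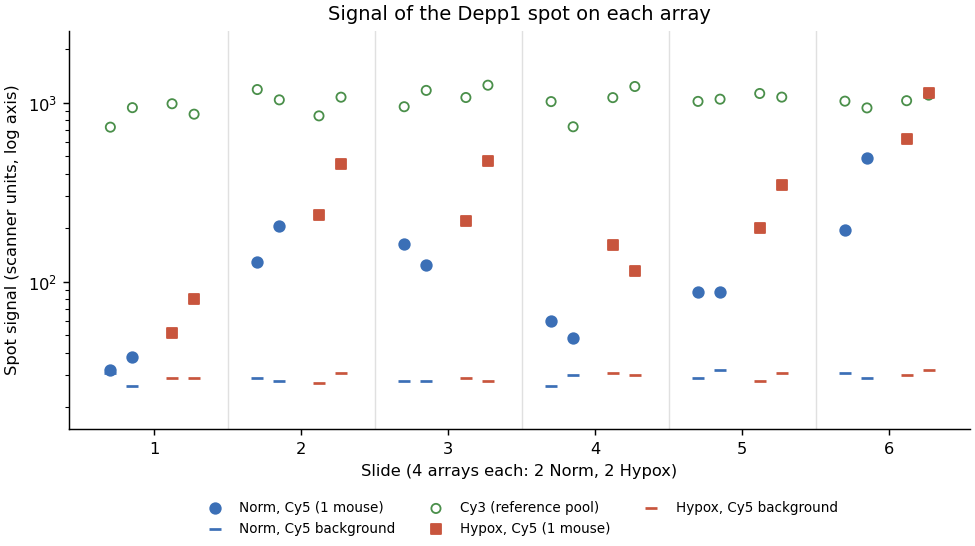
Signal of the Depp1 spot on each of 24 arrays, in scanner units on a log axis, by slide. Filled points are the Cy5 signal of 1 mouse (circles Norm, squares Hypox), dashes its local background and open circles the Cy3 signal of the pool. On each slide both Hypox points lie above both Norm points, and on slide 1 the Norm points (32.1 and 38.0) lie near the background.

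On 22 of the 24 arrays the spot was well above background in Cy5. The exceptions were Norm replicates 4 and 11, both on slide 1, where the signals of 32.1 and 38.0 stood over backgrounds of 31 and 26. The level of Depp1 on these arrays is therefore poorly known, while all 12 Hypox arrays and 10 of 12 Norm arrays measured it.

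After background correction with an offset of 50 and loess normalization, the log2 ratio of Depp1 was -0.94 ± 0.30 (SD, n = 12) in Norm, from -1.39 to -0.50 with a median of -0.98. In Hypox it was 0.01 ± 0.27 (SD, n = 12), from -0.55 to 0.43 with a median of -0.02. The Hypox arrays were higher by 0.95 on the log2 scale. This was the largest rise among the 9104 genes (rank 2 with an offset of 0 or with Agilent's processed signals), and in size it was passed by falls such as those of Neb (-1.12), which encodes the giant thin-filament protein nebulin, and the mitochondrial gene ND4L (-1.17).

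Of the 12 Hypox arrays, 11 lay above all Norm arrays, and the array of Hypox replicate 2, at -0.55, lay within the Norm range. In the same contrast 31 genes (0.341%) passed limma's test at an adjusted p under 0.05, 8 of them higher in Hypox (0.0879%) and 23 lower (0.253%). At an unadjusted p under 0.05 there were 1112 genes (12.2%), of which 650 were higher (7.14%) and 462 lower (5.07%). The fit covered all genes, Depp1 included, and since Depp1 was picked for this contrast nothing is read from its own result there. The count of 31 moved with the arrays used, from 4 without Hypox replicate 7 to 53 without Norm replicate 12.

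The ratios by slide gave the same order of the groups as the raw signals, with both Hypox arrays above both Norm arrays on 6 of 6 slides. On slide 1 the Norm arrays were at -0.69 and -0.54 and the Hypox arrays at -0.24 and -0.04. On slide 2 they were at -1.39 and -0.76 against -0.13 and -0.05, and on slide 3 at -1.16 and -1.06 against -0.55 and 0.20. Hypox replicate 2, the low Hypox array, was thus still above its slide's Norm arrays.
On slide 4 the Norm arrays were at -1.02 and -0.68 and the Hypox arrays at -0.14 and 0.00. On slide 5 they were at -1.31 and -0.95 against 0.20 and 0.35, and on slide 6 at -1.21 and -0.50 against 0.13 and 0.43. The difference between the Hypox and the Norm mean of a slide was largest on slide 5, at 1.41. It was 0.48 on the dim slide 1, where Depp1 was not well above background on either Norm array.

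The offset of 50 added before the logarithm pulls dim spots towards the pool, and the size of the Depp1 difference moved with it. With an offset of 0, the Norm arrays averaged -1.36 ± 0.61 (SD, n = 12). The Hypox arrays then averaged 0.06 ± 0.34 (SD, n = 12), a difference of 1.42. Norm replicate 4, where Depp1 was not well above background, went from -0.69 to -2.96. The difference on slide 1 then went from 0.48 to 1.92. Depp1 was not well above background on either Norm array of that slide, so this size and its rank among the slides are not read. In the deposited log2 values, in which 9 of 12 Hypox arrays lay above all Norm arrays, the group means were 6.80 ± 0.38 (SD, n = 12) and 7.92 ± 0.52 (SD, n = 12).

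**Figure D2:**
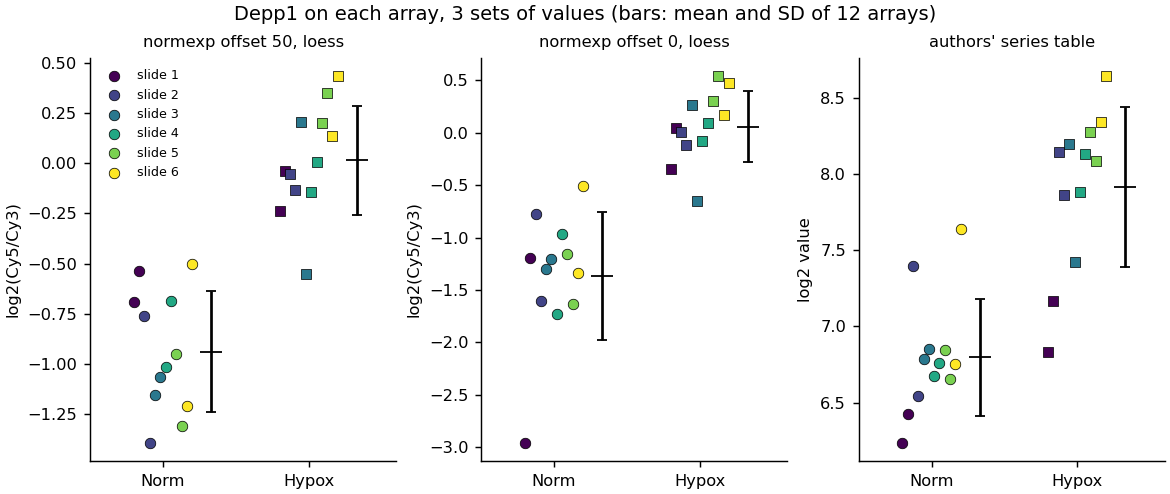
Depp1 on each array in Norm (circles) and Hypox (squares), coloured by slide, as log2(Cy5/Cy3) with a normexp offset of 50 or 0 followed by loess, and as the log2 value of the authors' series table. Bars are the mean and SD of 12 arrays. With an offset of 50, 11 of 12 Hypox arrays lie above all Norm arrays, and with an offset of 0 the Norm array of replicate 4 stands apart at -2.96.

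Within a group, the mice differed in Depp1 by an SD of 0.29, more than 70.3% of the 9104 genes (median SD 0.24). After loess and scaling between arrays, the Cy5 level of Depp1 had an SD of 0.30 in Norm and 0.24 in Hypox, and the Cy3 level of the common pool 0.07 over all 24 arrays. Before these steps the log2 signal of the spot had an SD of 1.14 in Norm and 1.28 in Hypox in Cy5. In Cy3 it had 0.22 and 0.17. After these steps, the larger spread was in the Cy5 channel. The spread may hold differences between mice, labelling and scanning, which cannot be told apart with 1 array per mouse.

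Depp1 was compared with 4 measures of the array, within Norm, within Hypox and over both groups with the group means removed, which gave 12 relations. With the mean log2 Cy5 signal of the array, its ratio had an r of -0.33 in Norm (rho -0.32, permutation p 0.291) and 0.39 in Hypox (rho 0.46, permutation p 0.208). Without the 2 arrays farthest in brightness, these values were 0.03 and 0.03. The lowest adjusted p was 0.698 for r and 0.295 for rho, the latter from the Cy3 signal of the Depp1 spot in Norm (rho -0.66, unadjusted permutation p 0.0246).

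Genes that rise and fall with Depp1 between mice of the same group were then sought with a slope on Depp1, after removing the group means so that the difference between Norm and Hypox could not enter. For 9103 genes, 0 (0%) passed limma's test at an adjusted p under 0.05. At an unadjusted p under 0.05 there were 1026 genes (11.3%), 453 with a positive slope (4.98%) and 573 with a negative slope (6.29%). Without Hypox replicate 2 there were 579 (279 positive and 300 negative). Positive slopes outnumbered negative ones with Agilent's processed signals (1630 and 283), the Cy5 channel alone (2626 and 465) and an offset of 0 (1413 and 418). Leaving out Hypox replicate 9 gave 9 genes with an adjusted p under 0.05 and leaving out Hypox replicate 1 gave 1, Qrsl1.

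An r with Depp1 of at least 0.4 in size and of the same sign in both groups was seen for 410 genes (4.50%), 183 positive (2.01%) and 227 negative (2.49%). More genes, 754 (8.28%), reached that size with opposite signs in Norm and Hypox. Over the 9103 genes, the r in Norm and the r in Hypox were themselves correlated at -0.13, a description across genes that share the same arrays. Across the same genes, the r with Depp1 and the r with the mean log2 Cy5 signal of the array were correlated too. This correlation was -0.53 in Norm and 0.36 in Hypox, and the part of array brightness in the opposite signs was not tested.

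**Figure D3:**
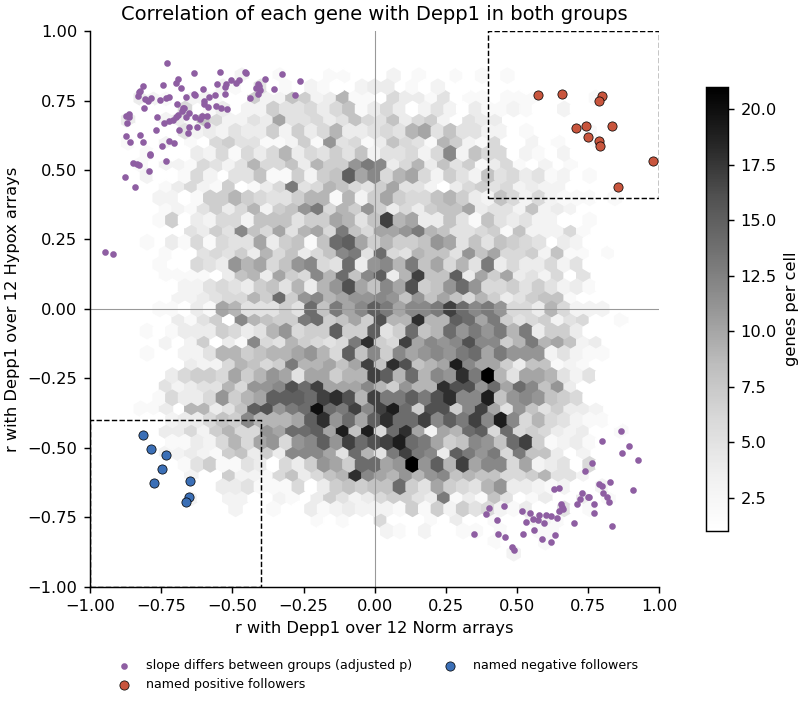
Correlation (r) of each of 9103 genes with Depp1 over 12 Norm arrays (horizontal axis) and over 12 Hypox arrays (vertical axis). Shading gives the number of genes, dashed boxes hold genes with r of at least 0.4 in size and the same sign in both groups, larger points are the 20 named followers, and small purple points are the 147 genes whose slope differed between the groups. The purple points lie in the corners of opposite sign or near them.

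Since no gene passed the adjusted test, the genes that come closest are given as a description. They were picked by their slope on these arrays, so their correlations are not independent evidence. Of the 12 with positive slopes, the first was Qrsl1, a subunit of the amidotransferase that makes glutaminyl-tRNA in mitochondria. Its log2 ratio was -0.78 to 0.06 on the Norm arrays (median -0.36), and the Hypox arrays lay inside that range, at -0.63 to -0.06 (median -0.26). In Norm it tracked Depp1 closely, with an r of 0.98 (rho 0.94, permutation p 2e-05), and in Hypox less so, with an r of 0.53 (rho 0.45, permutation p 0.0739). Qrsl1 was well above background on only 18 arrays, with a mean ratio of Cy5 to background of 3.2, so its level elsewhere is poorly known. On the Norm arrays of the dim slide 1, where Depp1 was not well above background, Qrsl1 was at -0.02 and 0.06. Without slide 1, the r of Qrsl1 was 0.97 in Norm and 0.55 in Hypox. Whether the slope of Qrsl1 differed between the groups was tested directly, and the adjusted p was 0.132. Its slope was 0.63 ± 0.12 (SE) log2 units per log2 unit of Depp1, with an adjusted p of 0.124 by limma.

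Arl2, a small GTPase of tubulin folding, had a slope of 0.67 ± 0.13 (SE, adjusted p 0.146 by limma) and an r of 0.84 in Norm and 0.66 in Hypox. Srsf6, a splicing factor, had a slope of 0.57 ± 0.12 (SE, adjusted p 0.146 by limma), with an r of 0.80 and 0.77. The tested probes of Arl2 and Srsf6 were well above background on only 19 and 18 arrays. The second probe of Srsf6 went the other way, at -0.55 and -0.19, so this gene depends on the probe.

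Of the remaining 9, Paip2b inhibits the poly(A)-binding protein, Gtf3a drives 5S rRNA transcription, Gtf2h3 is a subunit of TFIIH, Rpl29 belongs to the large ribosomal subunit, and Farsb is the beta subunit of phenylalanyl-tRNA synthetase. Dnajb2 is a co-chaperone, Os9 a lectin of protein quality control in the endoplasmic reticulum, Dctn2 a subunit of dynactin and Sphk2 a sphingosine kinase. Their slopes ran from 0.41 (Os9) to 0.70 (Rpl29), with adjusted p-values of 0.246 to 0.251 by limma. The dimmest of these genes, Gtf2h3, was well above background on only 13 arrays, with a mean ratio of Cy5 to background of 2.2. The second probe of Rpl29 had an r of 0.55 in Norm and 0.17 in Hypox.

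Among the 8 with negative slopes, Cyp2r1, the hydroxylase that starts vitamin D activation, had the steepest. Its log2 ratio was -0.29 to 1.22 on the Norm arrays (median 0.09). The Hypox arrays were lower but overlapped them, at -0.90 to 0.33 (median -0.22). The slope was -0.99 ± 0.23 (SE, adjusted p 0.246 by limma), and r was -0.75 in Norm and -0.57 in Hypox. With median centring and in the deposited values, the slopes of all 8 genes turned positive. Gm14418 had a slope of -0.91 ± 0.19 (SE, adjusted p 0.146 by limma) and an r of -0.77 and -0.63.
The others were Gm13196, St6galnac1 (a sialyltransferase), Commd3 (of the COMMD family), Gm14440, Gm13194 and Gm20472, with slopes from -0.88 to -0.62. RefSeq lists Gm14418, Gm13196 and Gm20472 as pseudogenes, and probes for pseudogenes and predicted genes can bind near-identical copies, so these names are uncertain.

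Many of these values rested on few arrays. Without the 2 Hypox arrays farthest in Depp1, which include the low replicate 2, the r in Hypox was 0.14 for Qrsl1, 0.07 for Dnajb2 and 0.18 for Gtf3a. It became 0.49 for St6galnac1, against -0.53 with all 12 arrays. Srsf6 (0.67), Os9 (0.68), Paip2b (0.60), Gm14418 (-0.63) and Cyp2r1 (-0.67) moved less. With the group means removed, the 12 positive genes correlated with each other at a median r of 0.62, close to the median size of 0.68 at which the 20 genes correlated with Depp1. All 20 were picked for their correlation with Depp1, so some correlation among them follows from that choice and nothing more is read from it. They are not counted as 20 separate relations.

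The followers were also set against the difference between Hypox and Norm, which the slope does not use. Of the 183 positive genes, 10 were higher and 3 lower in Hypox at an unadjusted p under 0.05 (5.46% and 1.64%, against 7.14% and 5.07% of all genes), and 0 passed at an adjusted p under 0.05. Of the 227 negative genes, 9 were higher and 19 lower (3.96% and 8.37%), and 1 passed at an adjusted p under 0.05. Cyp2r1 was lower in Hypox by a log2 ratio of -0.51 ± 0.16 (SE, adjusted p 0.175 by limma) and on 6 of 6 slides. Qrsl1 differed by 0.03 ± 0.09 (SE, adjusted p 0.916 by limma).

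**Figure D4:**
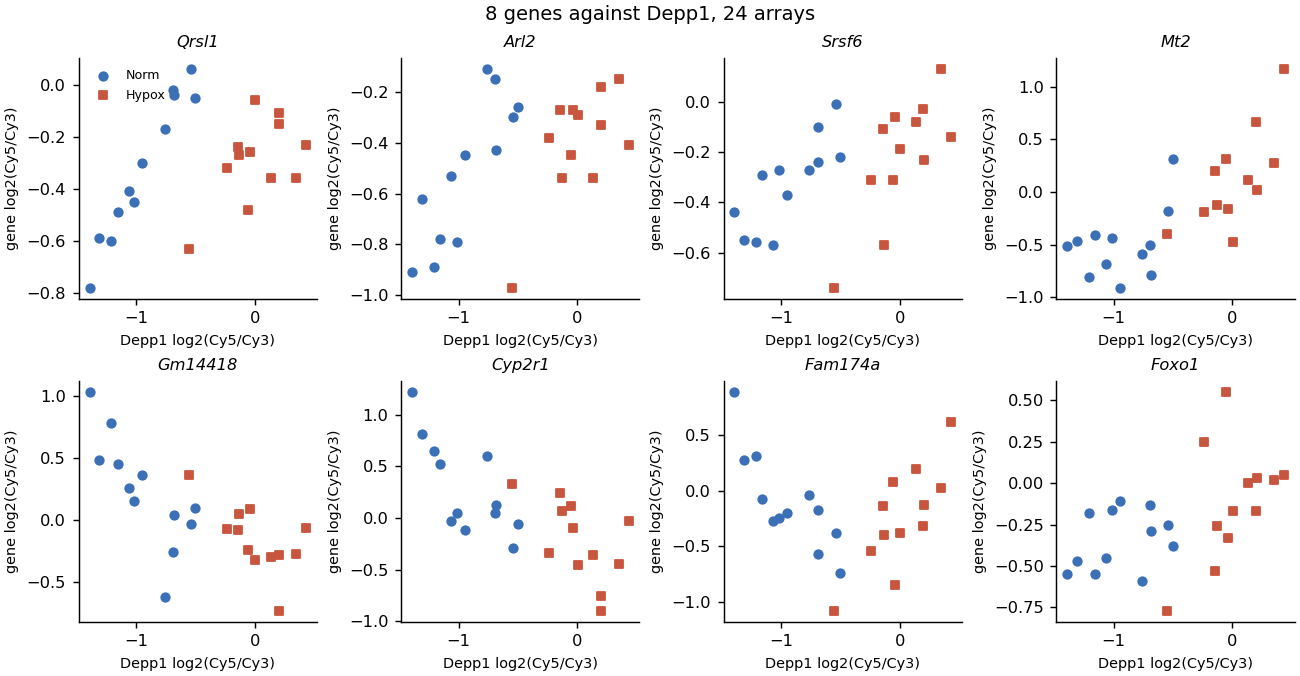
Log2(Cy5/Cy3) of 8 genes (vertical axes) against that of Depp1 (horizontal axes) on 12 Norm arrays (circles) and 12 Hypox arrays (squares). Qrsl1 rises with Depp1 within Norm (r 0.98) but its Norm and Hypox levels overlap, Cyp2r1 falls with Depp1 in both groups, and Fam174a falls in Norm (r -0.83) and rises in Hypox (r 0.78).

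The slope on Depp1 differed between Norm and Hypox for 147 genes (1.61%) at an adjusted p under 0.05 by limma, and for 1768 (19.4%) at an unadjusted p under 0.05. Of the 1768, 720 had the higher slope in Hypox (7.91%) and 1048 in Norm (11.5%). Of the 147, 94 (1.03% of the genes tested) had a negative r in Norm and a positive r in Hypox, and 53 (0.582%) the reverse. The first was Fam174a, a membrane protein, with an r of -0.83 in Norm (rho -0.79) and 0.78 in Hypox (rho 0.69). Its slope was higher in Hypox by 2.52 ± 0.40 (SE, adjusted p 0.00476 by limma). Zfp930, a zinc finger gene, 4933434E20Rik, Luc7l3, a splicing factor, and Memo1 shared that adjusted p and that direction. All 5 passed the test in 24 of 24 fits that left out 1 array. Under 18 other settings Fam174a, Zfp930, Luc7l3 and Memo1 passed in 10 each and 4933434E20Rik in 8. The second probe of 4933434E20Rik gave 0.12 in Norm and -0.22 in Hypox, against -0.83 and 0.77 for the tested probe.

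Of 319 genes tested in any list, 3 belonged to the 147 (0.940%, against 1.61% of all genes). Gabarapl1, which coats autophagosomes, had an r of 0.64 in Norm and -0.75 in Hypox (adjusted p 0.0335 for the difference in slope, by limma). Nr1d2, a repressor of the circadian clock, had -0.87 and 0.67 (adjusted p 0.00791 by limma), and Plvap, of endothelial cells, 0.87 and -0.44 (adjusted p 0.0335 by limma). With 1 array left out, Nr1d2 passed in 24 of 24 fits, Plvap in 19 and Gabarapl1 in 18. Under the 18 other settings, Nr1d2 passed in 9, Plvap in 4 and Gabarapl1 in 3, and the sign of Gabarapl1 turned in 1.

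Array brightness moved with these genes. In Hypox, 57.8% of the 147 genes had an r of over 0.4 in size with the mean log2 Cy5 signal of the array, against 33.2% of all genes, and in Norm 39.5% against 33.3%. With brightness as a covariate, 27 genes had an adjusted p under 0.05, and with slide as a block 12 had. The count was 1 with the Cy5 channel alone or an offset of 0. It was 0 with processed signals, median centring, the deposited values or replicate number as a block. The count also depended on single arrays. It was 23 without Norm replicate 3, 64 without Norm replicate 4, 76 without Norm replicate 6, 285 without Norm replicate 9 and 251 without Norm replicate 12. Among the Hypox arrays it was 31 without replicate 2, 256 without replicate 8, 75 without replicate 9 and 93 without replicate 11.

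The way the arrays were normalized decided how many genes followed Depp1. When each array was only centred on its median, 9074 genes had a positive slope at an adjusted p under 0.05, and Depp1 itself correlated with array brightness at 0.90 in Norm and 0.91 in Hypox. In the deposited values, 6239 genes passed, and Depp1 correlated with brightness at 0.71 and 0.78. With brightness as a covariate, 0 genes passed in the deposited values and 5526 in the median-centred ones. With an offset of 0, 552 genes passed (Depp1 with brightness 0.58 in Norm and 0.34 in Hypox), and with the Cy5 channel alone 1531 (0.68 and 0.22). Loess ratios, in which the correlation of Depp1 with brightness was -0.33 and 0.39, gave 0 genes. Agilent's processed signals also gave 0 genes, although Depp1 correlated with brightness there at 0.75 in Norm, with -0.0035 in Hypox.

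**Figure D5:**
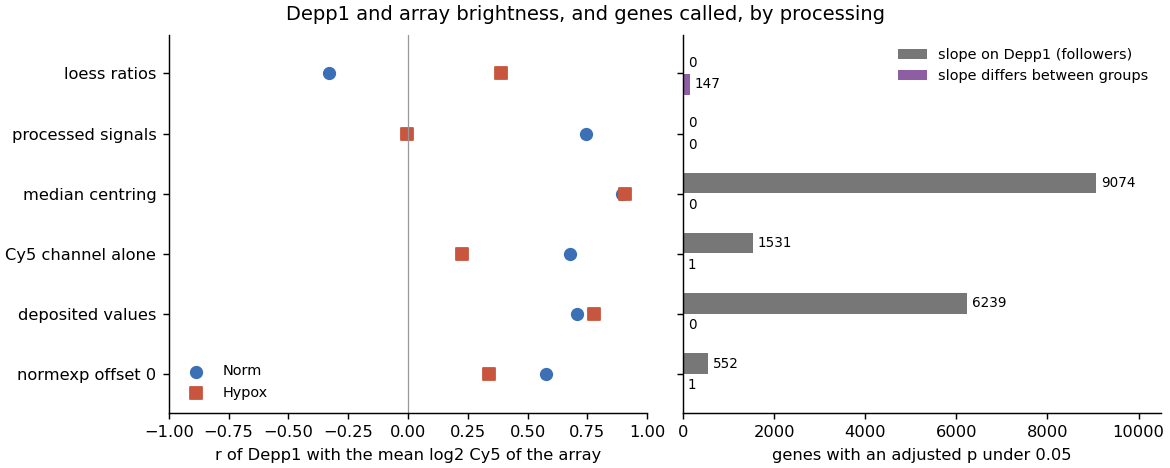
Left, r of the Depp1 value with the mean log2 Cy5 signal of the array over 12 Norm arrays (circles) and 12 Hypox arrays (squares) under 6 ways of processing. Right, the number of genes with an adjusted p under 0.05 for the slope on Depp1 (grey) and for a difference in slope between groups (purple). Median centring and the deposited values have an r of 0.71 or more in both groups and 9074 and 6239 genes, whereas processed signals have 0.75 in Norm, about 0 in Hypox and 0 genes.

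FOXO genes are the background against which Depp1 is usually read. Among 30 FOXO targets tested, 2 had a slope on Depp1 at an unadjusted p under 0.05 (6.67%, against 11.3% of all genes), both positive. They were Pdk4, which blocks glucose oxidation, with a slope of 0.66 ± 0.24 (SE, adjusted p 0.340 by limma), and Fbxo21, a ubiquitin ligase component, with 0.33 ± 0.11 (SE, adjusted p 0.303 by limma). The median r of the list with Depp1 was 0.13 in Norm and -0.03 in Hypox, against 0.03 and -0.10 over all genes.
Pdk4 had an r of 0.69 in Norm (adjusted permutation p 0.0658 over 186 relations of named genes) and 0.30 in Hypox (adjusted permutation p 0.465). Many of the 186 relations are of genes picked for their slope on these arrays, which lowers the adjusted values, so they are a description. Pdk4 did not share the difference between the groups, at 0.08 ± 0.15 (SE, adjusted p 0.846 by limma).

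In the contrast of Hypox and Norm, 7 of the 30 FOXO targets were higher and 3 lower at an unadjusted p under 0.05 (against 7.14% and 5.07% of all genes), and 0 passed at an adjusted p under 0.05. This list, like the other lists, was written with earlier results of these data known. It holds genes already reported as changed on these arrays, among them Ddit4, Trib3, Klf2, Gadd45a, Chrna1 and Insr. Counts of list members in this contrast are therefore a description, and nothing is read from an excess over all genes. Txnip, which restrains glucose uptake, was higher by 0.54 ± 0.15 (SE, adjusted p 0.0979 by limma) and on 6 of 6 slides, but its second probe differed by 0.20. Ddit4, an inhibitor of mTORC1, was higher by 0.53 ± 0.15 (SE, adjusted p 0.116 by limma), on 5 of 6 slides. The insulin signalling genes Irs2 (-0.34) and Insr (-0.20) and the PI3K inhibitor Pik3ip1 (-0.31) were the lower targets. Txnip, Ddit4, Klf2, Gadd45a, Cdkn1a and Trib3 had an r with Depp1 of -0.38 to 0.67 in Norm and -0.20 to 0.39 in Hypox, and none had an adjusted permutation p under 0.05.

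Of 30 genes that regulate FOXO or work with it, 1 had a positive and 3 a negative slope on Depp1 at an unadjusted p under 0.05 (13.3%, against 11.3% of all genes). Foxo1 itself had a log2 ratio of -0.59 to -0.11 on the Norm arrays (median -0.33). The Hypox arrays spread wider around them, at -0.77 to 0.55 (median -0.08). Its slope on Depp1 was 0.37 ± 0.19 (SE, adjusted p 0.471 by limma), and its difference between Hypox and Norm 0.23 ± 0.11 (SE, adjusted p 0.392 by limma). The second probe of Foxo1 had a difference between Hypox and Norm of 0.12. Its r with Depp1 was 0.31 in Norm and -0.10 in Hypox, against 0.31 and 0.46 for the tested probe. Foxo4 had a slope of -0.28 ± 0.15 (SE, adjusted p 0.470 by limma). Foxo3 was not well above background on any array.
Sgk1, a kinase that phosphorylates FOXO factors and is induced by glucocorticoids, was 1 of the 31 genes of the contrast. It was higher in Hypox by 0.46 ± 0.11 (SE, adjusted p 0.0475 by limma) and on 6 of 6 slides, but its r with Depp1 was 0.14 in Norm and 0.21 in Hypox. That call was near the threshold, and Sgk1 passed in 4 of 24 fits that left out 1 array (adjusted p 0.0252 to 0.101 by limma), with a positive difference in all 24. Under 18 other settings it passed in 9 (adjusted p 0.0182 to 0.834 by limma).

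Among 28 glucocorticoid targets, 4 had a positive and 2 a negative slope at an unadjusted p under 0.05 (21.4%, against 11.3% of all genes). In Hypox, 8 were higher and 0 lower at an unadjusted p under 0.05, against 7.14% and 5.07% of all genes. Mt2, a metallothionein that binds zinc and is induced by glucocorticoids, had the smallest slope p of the list. Its log2 ratio was -0.91 to 0.31 on the Norm arrays (median -0.50) and reached higher on the Hypox arrays, at -0.48 to 1.17 (median 0.07). The groups overlapped, with a difference of 0.62 ± 0.15 (SE, adjusted p 0.0652 by limma) that was positive on 6 of 6 slides. The slope on Depp1 was 0.80 ± 0.23 (SE, adjusted p 0.281 by limma), with an r of 0.44 in Norm and 0.71 in Hypox. Without the 2 farthest arrays of each group these were -0.26 and 0.46.
The other members with a positive slope were Pdk4, Lpin1 (0.52), which makes diacylglycerol, and the transcription factor Klf9 (0.36). Those with a negative slope were the phosphatase Dusp1 (-0.43) and Mstn (-0.50), which limits muscle growth.

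Among 45 autophagy genes, 2 had a positive slope (Ambra1, which promotes autophagosome formation, and Lamp1, of lysosomes) and 2 a negative slope (the mitophagy receptor Bnip3l and Lamp2) at an unadjusted p under 0.05 (8.89%, against 11.3% of all genes). Among 33 genes of peroxisomes and defence against reactive oxygen species, 1 was positive (the peroxisomal import receptor Pex5, 0.43) and 3 negative (Pex2, Hsd17b4 and Prdx1), or 12.1%. Catalase (Cat) was not among them.
Among 36 HIF targets, 3 were positive and 1 negative (11.1%). Egln3, the oxygen-sensing prolyl hydroxylase, was the first, with a slope of 0.54 ± 0.15 (SE, adjusted p 0.260 by limma). It did not share the difference between the groups, at -0.01 ± 0.10 (SE, adjusted p 0.971 by limma). In that contrast 2 of the 36 HIF targets were higher and 3 lower at an unadjusted p under 0.05, against 7.14% and 5.07% of all genes.

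Of 27 targets of PPAR and fasting, 2 had a positive slope (Pdk4 and the mitochondrial carrier Ucp3), or 7.41% against 11.3% of all genes, while 9 were higher and 1 lower in Hypox at an unadjusted p under 0.05, against 7.14% and 5.07% of all genes. Of 13 genes of the ATF4 stress response, 1 was positive (Slc3a2), or 7.69% against the same 11.3%.

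The 5 genes next to Depp1 in the order of the difference between Hypox and Norm were Sftpc (0.81), Slc25a16 (0.72), Angptl4 (0.66), Arrdc2 (0.64) and Mt2 (0.62). None of them passed at an adjusted p under 0.05, and few arrays bore the values of the first 2. Sftpc, a surfactant protein of the lung, was well above background on 4 of 24 arrays. Slc25a16 ran from -0.29 to 7.03 in Hypox with a median of 0.18. Angptl4, an inhibitor of lipoprotein lipase, and Arrdc2 were higher in Hypox on 6 of 6 slides, and their r with Depp1 was 0.07 and -0.06 in Norm and -0.33 and -0.06 in Hypox.

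Within 500 kb of the Depp1 probe, 3 genes were tested. Washc2, of the WASH complex, Marchf8, a ubiquitin ligase, and Zfp422 had slopes on Depp1 of -0.30, 0.08 and -0.03. Their differences between Hypox and Norm were -0.12, 0.19 and 0.05, with adjusted p-values of 0.636, 0.354 and 0.740 by limma. None of the 3 passed at an adjusted p under 0.05.

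The muscle holds several cell types, and in bulk RNA a change in the number of cells of a type and a change in RNA per cell cannot be told apart. Of 19 skeletal muscle fibre markers, 16 had a positive slope on Depp1, against 4295 of all 9103 genes, and 0 had an unadjusted p under 0.05. Their median r with Depp1 was 0.47 in Norm and -0.30 in Hypox. Of 10 slow fibre markers, 9 had a positive slope, 2 of them at an unadjusted p under 0.05 (Csrp3 and Tnnc1, against 11.3% of all genes in either direction), and the median r was 0.39 in Norm and -0.01 in Hypox. In Hypox, 3 slow fibre markers were higher at an unadjusted p under 0.05 (Tnni1, Tnnc1 and Casq2, against 7.14% of all genes), with 0 at an adjusted p under 0.05. In the same contrast 1 of the 19 skeletal muscle fibre markers was higher and 1 lower, with a median difference of -0.24. The slow fibre markers' median difference between Hypox and Norm was 0.36, against 0.03 over all genes, and their mean log2 ratio ran from -1.87 to 0.36 over the Norm arrays and from -0.28 to 0.14 over the Hypox arrays. Norm replicate 5 was the lowest Norm array for Myh7 (-2.90), Tnnc1 (-2.17) and Csrp3 (-1.62), so part of their differences rested on 1 mouse. Their medians in Norm and Hypox were -0.27 and -0.08 (Myh7), -0.75 and -0.40 (Tnnc1), and -0.75 and -0.51 (Csrp3). The part of either fibre list in the Depp1 values was not tested.
Of 21 endothelial markers tested, 1 had a slope on Depp1 at an unadjusted p under 0.05 (Mmrn2, positive), or 4.76% against 11.3% of all genes. In Hypox, 4 of them were higher and 0 lower at an unadjusted p under 0.05 (against 7.14% and 5.07% of all genes), and Rbp7, a retinol-binding protein, passed with a difference of 0.58 (adjusted p 0.0282 by limma). The marker lists, this one included, were written with earlier results of these data known, so such counts are a description. With 1 array left out Rbp7 passed in 14 of 24 fits (adjusted p 0.0130 to 0.0634 by limma), and under 18 other settings in 9 (adjusted p 0.00200 to 0.834 by limma). Among fibroblast (10), pericyte and smooth muscle (8), peripheral nerve (7), adipocyte (6), red blood cell (5) and macrophage (5) markers, at most 1 each had a slope on Depp1 at an unadjusted p under 0.05, against the same 11.3%. In Hypox, 2 fibroblast, 2 peripheral nerve and 2 adipocyte markers were lower and 0 higher at an unadjusted p under 0.05 (against 5.07% and 7.14% of all genes), with median differences of 0.07, -0.17 and -0.18. Of the red blood cell markers 1 was higher, and of the pericyte and macrophage markers 0 passed in either direction. Of the lung list, 0 of the 2 genes tested had a slope at an unadjusted p under 0.05, and Scgb1a1, Scgb3a2, Nkx2-1 and Cldn18 were not well above background on any array.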

How the data were processed

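Per the sample descriptions of all 24 arrays, M. gastrocnemius RNA of each mouse carried Cy5 and the pool of all samples Cy3, on Agilent arrays. The separate dye field of 5 Hypox samples names other dyes in running order, and the descriptions were followed for these too. The authors deposited scanner intensity values for each spot and channel (Agilent Feature Extraction 10.7.3.1 in the submitters' processing notes) and a series table of 21335 rows of log2 values, which follow the Cy5 signal (r 0.967 to 0.999 with log2 Cy5) and whose column medians are all 6.58, with its centring otherwise not given in the sources used here. The deposited intensity values were corrected here with normexp (offset 50) and normalized by loess within arrays in limma 3.58.1 (R 4.3.3), leaving out control spots and 7260 spot readings marked as outliers by the scanner software. Spots of a probe were averaged, and the brightest of a gene's probes was kept where its mean ratio of Cy5 to background was over 2 and at most 4 arrays were missing. This left 9104 genes, named by accession or symbol through RefSeq (GRCm38.p6), with 24300 of 55681 probes unnamed. No spot was saturated (0 readings).

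The slope on Depp1 was fitted in limma with condition as a term, its difference between groups with their product, and Hypox against Norm with condition alone. P-values were two-sided and adjusted by Benjamini-Hochberg over all genes. Relations of named genes were tested with 100000 permutations within groups, whose smallest possible p is 1e-05, and adjusted over 186 relations. Many of these genes were picked for their slope on the same arrays, so the adjusted permutation p-values are a description. Slides were numbered from the scanner files. The precision is limited by the number of arrays, 12 per group. On simulated data for 9104 genes, with independent noise, a slope of 1 was recovered for 76% of 50 genes, a slope of 2 for 100%, and a slope of 0.5 for 22%.

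Named genes were Depp1, the 12 positive and 8 negative genes with the smallest slope p among those with an r of at least 0.4 in size and the same sign in both groups, the 5 with the smallest p for a difference in slope, the 5 next in fold change, FOXO genes, Sgk1, neighbours within 500 kb and up to 3 genes of each list. Neb, ND4L and the list members named by their own counts were chosen after their values were seen. Depp1, the lists and the tests were chosen with earlier results of these data known. Alternatives were Agilent's processed signals, median centring, Cy5 alone with quantile normalization, the deposited values, slide or replicate number as a block, array brightness, array weights, other filters, averaging all probes of a gene, the t-test of the methods and leaving out arrays. An offset of 0, brightness combined with other choices, and leaving out the 2 arrays with Depp1 not well above background or, for all results but the slopes, the dimmest slide were added after seeing the data. The array labels do not tie replicate numbers of the groups together, and same-numbered arrays correlated at over 0.1 in 3 of 12 pairs. The slope counts of 1 gene list are not reported here.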

Additional observations from a re-analysis of the deposited data

Results flagged for a closer look

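The slope on Depp1 differed between Norm and Hypox for 147 genes at an adjusted p under 0.05 by limma's interaction test, and the 5 with the smallest p are given here. The slope in Hypox exceeded that in Norm by 2.52 ± 0.40 (SE) for Fam174a and by 2.51 ± 0.42 (SE) for Memo1. It exceeded it by 2.25 ± 0.37 (SE) for 4933434E20Rik, by 2.13 ± 0.34 (SE) for Zfp930 and by 2.06 ± 0.35 (SE) for Luc7l3. All 5 had a negative r in Norm (-0.88 to -0.69) and a positive r in Hypox (0.69 to 0.83). With slide as a block, the adjusted p was 0.0230 for Fam174a, 0.0267 for Zfp930, 0.0301 for Memo1, 0.0322 for Luc7l3 and 0.0517 for 4933434E20Rik. The r of these genes with the mean log2 Cy5 signal of the array was 0.20 to 0.44 in Norm and 0.33 to 0.73 in Hypox. With brightness as a covariate, 27 genes passed in place of 147. Each of the 5 genes kept the sign of its difference in 24 of 24 fits with 1 array left out. Under the 18 other settings the sign was positive in 18 for Fam174a, 4933434E20Rik and Memo1 and in 17 for Zfp930 and Luc7l3, and the adjusted p was under 0.05 in 10, or in 8 for 4933434E20Rik. Nearly all of these passes came from refits of the same loess ratios, since each other normalization called 0 genes or 1 gene.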

How the results depend on the processing

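The Depp1 difference stayed positive in all settings run. It was 1.63 with processed signals and 1.42 with an offset of 0, 0.95 to 1.12 in the others, and 0.91 to 1.00 with each array left out. The number of genes following Depp1 at an adjusted p under 0.05, 0 as reported, was 9074 with median centring, 6239 in the deposited values, 1531 with Cy5 alone, 552 with an offset of 0, 1 (Qrsl1) with brightness as a covariate, 5526 with median centring and brightness, and 0 to 9 with each array left out. The number of genes whose slope differed, 147 as reported, was 0 with processed signals, median centring, the deposited values, the replicate block, and median centring or the deposited values with brightness. It was 1 with Cy5 alone or an offset of 0, 12 with slide as a block, 27 with brightness, 28 with brightness and its product with condition, 20 with array weights, 89 without the dimmest slide, 37 without the 2 arrays with Depp1 near background, and 23 to 285 with each array left out. The number of genes differing between Hypox and Norm, 31 as reported, was 66 with processed signals, 0 with median centring, 14 with Cy5 alone, 1 in the deposited values, 70 with slide as a block, 18 with the replicate block, 279 with array weights, 8 without a filter, 16 without the arrays with Depp1 near background and 18 with an offset of 0. By the methods' t-test it was 9 after adjustment (1106 unadjusted) on the ratios and 1 (516 unadjusted) on the deposited values. Without the 2 arrays farthest from their group's median in Depp1 it was 81, and with brightness as a covariate it was 1 with median centring and 1 in the deposited values. With median centring alone the count unadjusted was 32. Without a single array it ran from 4 to 53, and for Norm arrays it was 6 without replicate 5, 7 without replicate 1 or 7, 9 without replicate 6, 11 without replicate 4, 12 without replicate 3, 14 without replicate 2, 18 without replicate 8 and 53 without replicate 12. For Hypox arrays it was 4 without replicate 7, 7 without replicate 3, 8 or 11, 8 without replicate 10, 11 without replicate 1 or 6 and 14 without replicate 9. The cause of these changes was not tested.

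The slopes of the 20 named followers kept their direction in all fits of the loess ratios with an offset of 50 that added a block, brightness or weights or left out arrays. Slopes reversed as follows. With median centring they were 0.60 for Gm14418, 1.13 for Cyp2r1, 1.32 for Gm13196, 0.59 for St6galnac1, 1.30 for Commd3, 0.78 for Gm14440, 1.20 for Gm13194 and 0.77 for Gm20472. In the deposited values they were 0.022 for Gm14418, 0.71 for Cyp2r1, 0.92 for Gm13196, 0.057 for St6galnac1, 1.01 for Commd3, 0.18 for Gm14440, 0.75 for Gm13194, 0.30 for Gm20472 and -0.29 for Gtf2h3. Gm14418 was also at 0.24 with processed signals, 0.38 with Cy5 alone and 0.15 with an offset of 0, Gm20472 at 0.036 with processed signals and Gm13194 at 0.022 with Cy5 alone. With the replicate block 0 genes differed in slope between the groups, against 147, and 18 differed between Hypox and Norm, against 31. For the slope on Depp1 it gave 810 genes at an unadjusted p under 0.05 against 1026. Replicate numbers are shared by name only. Single spots, and dim Cy5 signals on slide 1, limit the Depp1 values.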
